A study of Mus musculus with 6 samples.

Results

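Cycling keratinocytes are the epidermal cells caught in S phase, G2 or mitosis, and 426 of them were found among 34834 cells kept from 6 single-cell libraries of mouse dorsal skin. A cell was taken as a cycling keratinocyte if it held at least 3 unique molecular identifiers (UMIs, counted RNA molecules) of the cycling genes Mki67, Top2a and Cdk1 together. It also had to hold at least 10 UMIs of the basal keratins Krt5 and Krt14, and fewer than 5 UMIs of the collagen and matrix genes Col1a1, Col1a2, Col3a1 and Dcn. Of 12780 cells within the keratin and collagen limits, 426 (3.33%) passed the cycling limit, and the remaining 12354 are called other keratinocytes. The members were therefore chosen by measured values of these 9 genes, which are described here without a test.

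All mice were male wildtype C57BL/6 animals, and each library was made from skin pooled from 3 of them. At each of 8, 26 and 52 weeks of age, 1 library came from skin exposed outside the animal to PBMC-sec, and 1 from untreated skin that was processed directly. PBMC-sec is what γ-irradiated mononuclear cells of peripheral blood release into their medium. The dose and duration are not stated in the labels, which also do not say whether the libraries of 1 age came from the same animals. PBMC-sec skin spent time ex vivo and untreated skin did not, so effects of the secretome and of the time ex vivo cannot be told apart in any PBMC-sec comparison below. Lists of 3 values run in the order 8, 26 and 52 weeks. Levels are UMIs scaled to a total of 1000000 (CPM) over the summed cells of a library.

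The epidermis is renewed by division of basal keratinocytes and of hair follicle cells, whose daughters leave the cell cycle as they move upwards and differentiate. Entry into S phase is driven by cyclin-dependent kinases that release E2F transcription factors, which switch on replication genes. Later genes for mitosis are switched on through the CCAAT-binding factor NF-Y and through MuvB complexes, which bind an element called the cell cycle homology region (CHR). Mki67 coats mitotic chromosomes, Top2a untangles replicated DNA, and Cdk1 is the kinase that starts mitosis.

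Promoters of 3 cycle genes are shown because genes of their lists are what the selected cells share, and because the letters of these elements can be read in them. Windows of 250 bases before to 50 bases after the transcription start were taken from RefSeq (GRCm38.p6) and searched on both strands. The NF-Y element was searched as CCAAT, whose reverse complement counted as well. For the CHR the letters searched were TTTGAA with its reverse complement, and also the palindrome TTCGAA where it occurred. The E2F searches used GGCGGGAA, TTTGGCGC and TTTCGCGC with their reverse complements. The 3 promoters printed belong to the 2 genes of the G2/M list and the 1 gene of the S phase list with the highest mean CPM in cycling keratinocytes among those with a match. Capitals mark the matches. Ube2c, the ubiquitin-conjugating enzyme of the anaphase-promoting complex, has its window at chr2:164769679-164769978 on the plus strand, with 6 CCAAT matches, of which 2 overlap each other, and 1 CHR match. Cks2, a subunit of the Cdk1 kinase complex, has its window at chr13:51644982-51645281 on the plus strand, with 4 CCAAT matches. Pcna, the sliding clamp of replication, has its window at chr2:132253131-132253430 on the minus strand, with 1 CCAAT match.
Ube2c: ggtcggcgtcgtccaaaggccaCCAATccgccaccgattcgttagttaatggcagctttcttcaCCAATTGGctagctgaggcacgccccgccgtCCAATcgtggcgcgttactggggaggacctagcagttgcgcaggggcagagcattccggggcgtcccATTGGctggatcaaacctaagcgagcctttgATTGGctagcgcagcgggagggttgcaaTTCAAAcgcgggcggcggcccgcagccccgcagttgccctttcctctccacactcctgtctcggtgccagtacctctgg
Cks2: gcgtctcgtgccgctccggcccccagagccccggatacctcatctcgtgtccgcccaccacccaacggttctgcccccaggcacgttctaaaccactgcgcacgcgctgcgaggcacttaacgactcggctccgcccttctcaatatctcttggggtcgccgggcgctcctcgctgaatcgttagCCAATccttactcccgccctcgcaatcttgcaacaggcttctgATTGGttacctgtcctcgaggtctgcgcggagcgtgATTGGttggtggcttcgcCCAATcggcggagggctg
Pcna: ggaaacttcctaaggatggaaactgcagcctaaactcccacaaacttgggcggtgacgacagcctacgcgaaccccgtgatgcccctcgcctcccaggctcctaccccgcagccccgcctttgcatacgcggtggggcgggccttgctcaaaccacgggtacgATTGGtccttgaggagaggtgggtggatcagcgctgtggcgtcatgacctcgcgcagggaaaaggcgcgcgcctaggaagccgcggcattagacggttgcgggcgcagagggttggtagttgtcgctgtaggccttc
Of the 57 genes of the G2/M list measured, 46 had a window, and CCAAT and CHR letters stood together in 64.7% of their 51 windows, against 7.52% of all 32851 windows. CCAAT was found, with or without CHR letters, in 78.4% of G2/M windows, against 37.4% of all. CHR letters, with or without CCAAT, were found in 74.5%, against 19.2%. The 42 windows of the S phase list held E2F letters in 35.7%, against 2.96% of all windows, and CHR letters in 19.0%. CCAAT was found in 59.5% of them, so it was more frequent than over all windows in both lists. E2F letters were found in 1.96% of G2/M windows, and the Pcna window printed above held none. These matches describe the windows and do not show binding.

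The deposited matrices held between 19956655 and 40211991 UMIs per library. Kept cells had median depths of 2613, 3493.5 and 4804 UMIs in PBMC-sec libraries, against 1128, 2211 and 3064 UMIs in untreated libraries, so cells were deeper with PBMC-sec at every age. The 8-week untreated library stood apart because 1992 of its kept barcodes had near-identical profiles, against 189 to 256 in the other 5 libraries. Only 1 of its cycling keratinocytes was among them, and 22 of all 426 were. Between 27 and 82 deposited barcodes were shared by any pair of libraries, and 0 of them were cycling keratinocytes in both.

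Marker genes were read in the members to check the class. Each of the 16 keratinocyte markers that the rule did not use was detected in every library, and their summed level in cycling keratinocytes was 15710, 15925 and 14962 CPM in PBMC-sec libraries, against 20756, 19046 and 19687 CPM in untreated libraries. In other keratinocytes the same sum was 22612 to 32399 CPM. The 14 fibroblast markers summed to 192, 143 and 97.5 CPM in PBMC-sec libraries, against 179.9, 85.3 and 520 CPM in untreated libraries, with 5 to 11 of them at 0. The 12 macrophage and monocyte markers summed to 19.8, 33.1 and 256 CPM with PBMC-sec, against 248, 17.8 and 68.4 CPM untreated. Among the members, 5 barcodes, called mixed here, held at least 50 UMIs of immune markers or of cornified envelope genes beside their cycling and keratin UMIs. Without them the macrophage sum was 7.405 to 68.4 CPM. The one in the 26-week untreated library held 12612 UMIs of cornified envelope genes among 30672 UMIs, which is 10.9% of all cycling keratinocyte UMIs of that library. Counts of called genes are given with and without these 5.

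The rule genes reached the following levels, given as a description. Mki67 stood at 353, 216 and 242 CPM in PBMC-sec libraries, against 367, 252 and 449 CPM in untreated libraries, while other keratinocytes had 1.72 to 8.62 CPM. Top2a had 296, 219 and 208 CPM in PBMC-sec libraries, against 331, 391 and 467 CPM in untreated libraries. Cdk1, the lowest of the 3 in UMIs, had 137, 89.3 and 68.9 CPM in PBMC-sec libraries, against 122, 181 and 82.1 CPM in untreated libraries. Cells with all 3 genes numbered 90, 32 and 42 in PBMC-sec libraries, against 38, 13 and 14 in untreated libraries, which together make 229 of the 426. Krt14, the basal keratin that marks the class, was about as high in cycling as in other keratinocytes, with a mean log2 ratio of -0.15 over the 6 libraries. At the edge of the rule, 62 cells held exactly 3 cycling UMIs, and 146 cells just outside it held exactly 2. Cells with exactly 3 had 1224 CPM of S phase genes and 1650 CPM of G2/M genes, and cells with exactly 2 had 1165 and 1199 CPM. Cells with 4 or more had 2035 and 3689 CPM, and cells with 0 had 485 and 388 CPM. These levels pool the 6 libraries. Cells with exactly 3 were lowest in the 52-week PBMC-sec library, where 13 such cells had 453 and 718 CPM. There, cells with exactly 2 had 787 and 741 CPM, and cells with 0 had 384 and 332 CPM. Thus the cells just outside the limit carried raised S phase and G2/M levels too.

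Cycling cells made up a larger share of keratinocytes with PBMC-sec than without it at every age, but not once cells were set to 1 depth. They numbered 144 of 2421, 63 of 2566 and 83 of 1750 keratinocytes in PBMC-sec libraries, against 69 of 3168, 28 of 1914 and 39 of 961 in untreated libraries. At 8 weeks the share was 5.95% (95% exact binomial interval 5.04 to 6.97) with PBMC-sec, against 2.18% (1.70 to 2.75) untreated. At 26 weeks it was 2.46% (1.89 to 3.13) with PBMC-sec, against 1.46% (0.974 to 2.11) untreated. At 52 weeks it was 4.74% (3.80 to 5.85) with PBMC-sec, against 4.06% (2.90 to 5.51) untreated. The intervals cover counting error only and do not overlap at 8 weeks alone. The log2 ratios of PBMC-sec over untreated were 1.45, 0.75 and 0.22, with a mean of 0.81 ± 0.61 (SD, n = 3 ages; exact sign-flip permutation test, two-sided, p = 0.25, the smallest this design allows).

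A cell needs 3 UMIs of rare transcripts to pass, so the share was also read at 1 depth. Cells were thinned to 2000 UMIs each and shallower cells left out, which removed 2229, 1870 and 1186 cells from PBMC-sec libraries and 6498, 2546 and 1339 from untreated libraries. The share was then 1.56, 0.480 and 1.05% in PBMC-sec libraries, from 30, 10 and 12 cells, against 1.50, 0.279 and 1.58% in untreated libraries, from 22, 4 and 11 cells. The log2 ratios became 0.05, 0.78 and -0.59, with a mean of 0.08 ± 0.69 (SD, n = 3; exact permutation p = 0.75). Thinning also left out the shallow cells and left few cycling ones, and the part of each in this shift was not tested. At 1 depth the share with PBMC-sec lay above the untreated one at 8 and 26 weeks and below it at 52 weeks, each within the counting intervals. Thinned to 1000 UMIs, where 12, 1 and 3 cells passed with PBMC-sec, against 4, 1 and 3 untreated, the ratios of the shares were 2.87, 0.78 and 0.66, so the order at 8 and 26 weeks was not the same at both depths. The 26-week libraries had the lowest share in both treatments with and without thinning.

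**Figure D1:**
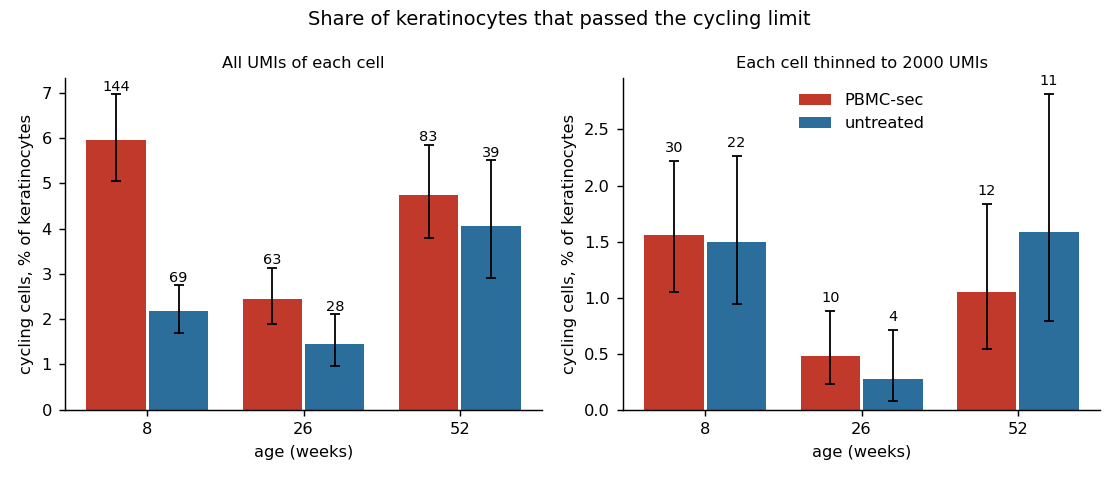
Cycling cells as a percentage of keratinocytes (y axis) by age in weeks (x axis), with all UMIs on the left and with every cell thinned to 2000 UMIs on the right. Bars are single libraries, whiskers 95% exact binomial intervals and numbers the cycling cells; the left panel runs from 1.46 to 5.95% and the right one from 0.279 to 1.58%.

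Cycling keratinocytes held more UMIs than other keratinocytes. Their median depth was 11555, 13695 and 18588 UMIs in PBMC-sec libraries, against 10729, 8522.5 and 8176 UMIs in untreated libraries. Other keratinocytes had 4550, 6521 and 8117 UMIs with PBMC-sec, against 2053, 3907 and 5762.5 UMIs untreated. Within a library the ratio of both medians was 2.10 to 2.54 with PBMC-sec, against 1.42 to 5.23 untreated. The rule asks for a minimum of UMIs and so favours deep cells, and this ratio is a description only. Median mitochondrial shares of the members were 1.18 to 1.61% with PBMC-sec, against 1.28 to 1.85% untreated.

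S phase and G2/M transcripts were both present in every library, with more of the G2/M list. The S phase list holds 46 measured genes of replication (Pcna, the ribonucleotide reductase subunit Rrm1, the dUTPase Dut) and the G2/M list 57 genes of mitosis, both without the rule genes. S phase genes summed to 2344, 2094 and 1387 CPM in PBMC-sec libraries, against 2337, 1375 and 1839 CPM in untreated libraries. G2/M genes summed to 3972, 2820 and 2636 CPM in PBMC-sec libraries, against 4363, 4453 and 3756 CPM in untreated libraries. Other keratinocytes had 401 to 749.9 CPM of S phase and 352 to 545 CPM of G2/M genes. The log2 ratio of G2/M over S phase levels was 0.76, 0.43 and 0.93 with PBMC-sec, against 0.90, 1.69 and 1.03 untreated. It was thus lower with PBMC-sec at each age, by 0.14, 1.27 and 0.10 (mean difference -0.50 ± 0.66, SD, n = 3; exact sign-flip permutation p = 0.25, the smallest possible). The 26-week difference was far larger than the other 2 and rests on the 28 cells of the 26-week untreated library. With cells chosen after thinning to 2000 UMIs, the mean difference was -0.0032 (exact permutation p = 1), and that of 26 weeks was 0.57.

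Single cells spread along both axes. A cell was counted as mostly G2/M where at least 2 of every 3 of its list UMIs came from the G2/M list, and as mostly S where at most 1 of 3 did. Mostly G2/M cells numbered 76, 26 and 47 in PBMC-sec libraries, against 43, 23 and 27 in untreated libraries. Mostly S cells numbered 18, 6 and 7 with PBMC-sec, against 6, 2 and 2 untreated. The median G2/M share of a cell was 67.0, 61.1 and 71.0% with PBMC-sec, against 71.1, 76.1 and 75.2% untreated. Mki67, Top2a and Cdk1 are themselves high in G2 and mitosis, so the rule takes such cells more readily than early S phase cells.

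**Figure D2:**
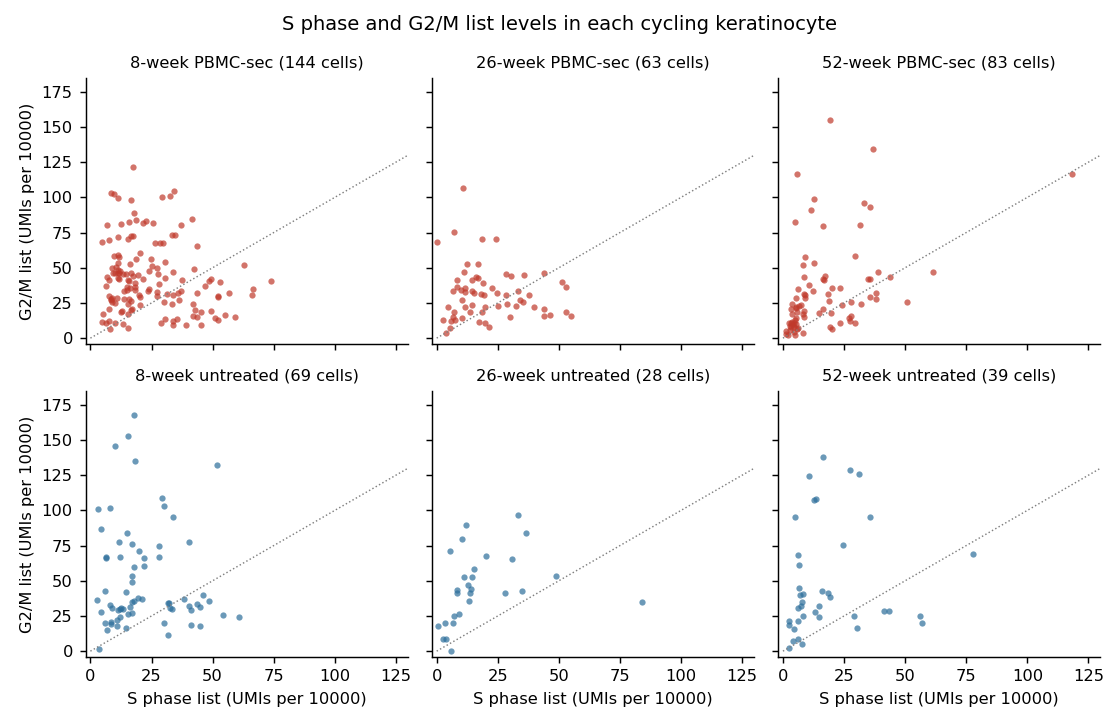
Each point is 1 cycling keratinocyte, placed by its S phase list level (x axis) and G2/M list level (y axis), both in UMIs per 10000; panels are libraries and the dotted line marks equal levels. Most points lie above the line in every library, and the 26-week untreated panel holds the fewest cells, 28.

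Set against other keratinocytes of the same library, cycling cells had higher levels of mitotic and replication genes and lower levels of late differentiation genes. This contrast is the one the rule was cut from, so it is given without a test. Of 3047 genes with at least 50 CPM in 1 of the classes, 743 were higher and 445 lower in cycling cells in all 6 libraries, with a median log2 ratio of 0.07. All 26 G2/M genes at that level were higher in all 6 libraries (median log2 ratio 3.97), as were all 16 S phase genes (2.01) and 19 of 21 replication histone and chromatin genes (1.65). Pclaf, the PCNA-associated factor, had 131, 94.3 and 93.0 CPM in PBMC-sec libraries, against 152, 110.2 and 72.9 CPM in untreated libraries, while other keratinocytes had 0.894 to 2.45 CPM. The kinetochore protein Cenpf had 89.0, 56.2 and 53.2 CPM in PBMC-sec libraries, against 122, 139 and 176 CPM in untreated libraries, while other keratinocytes had 0.304 to 2.11 CPM. Ube2c had 382, 186 and 191 CPM in PBMC-sec libraries, against 390.1, 654 and 223 CPM in untreated libraries, while other keratinocytes had 4.20 to 17.5 CPM. The other genes with the largest ratios were Ccna2 and Ccnb1 (cyclins), Cenpe, Kif11 and Tpx2 (spindle motors and assembly), Racgap1 and Anln (cytokinesis), Birc5, Incenp and Cdca3, Hmmr, Tacc3, Smc2 (condensin), Spc24, Cenpa and the histone genes Hist1h2ae and Hist1h2ap, with mean log2 ratios of 3.40 to 5.21.

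Genes of the upper epidermis stood lower. Of 18 suprabasal differentiation genes, 11 were lower in all 6 libraries and 0 higher (median log2 ratio -2.53). The 10 genes with the lowest ratios, Krt1 and Krt6b among them, are all prone to free RNA by the measure given below. That measure also sets other cells against cycling keratinocytes, so genes with low ratios tend to meet it and it adds no separate sign of leaked RNA. Up to 72.2% of the Krt1 UMIs and 84.3% of the Krt6b UMIs of a library came from 1 cycling keratinocyte. Krt1, the first suprabasal keratin, had 13.6, 36.1 and 17.9 CPM in PBMC-sec libraries, against 97.2, 42.6 and 41.0 CPM in untreated libraries, while other keratinocytes had 222 to 515 CPM. Krt6b, a keratin of wounded and follicular epidermis, had 59.5, 51.1 and 8.97 CPM in PBMC-sec libraries, against 71.5, 131 and 203 CPM in untreated libraries, while other keratinocytes had 609 to 1705 CPM. The remaining genes with the lowest ratios were the cornified envelope genes Lce3d, Lce3f, Sprr2d and Sprr2f, the keratin Krt77, the connexin Gjb6, Endou and Teddm3, with mean log2 ratios from -5.79 to -2.74. All 22 wound-activated genes were expressed at that level, and 9 were lower in all 6 libraries (-1.23). Lipid synthesis genes were lower in 10 of 14 (-0.59), while ribosome biogenesis genes were higher in 7 of 12 (0.49) and oxidative phosphorylation genes in 9 of 20 (0.32). Basal adhesion genes lay near the other keratinocytes, with 1 of 17 higher, 1 lower and a median of -0.14.

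PBMC-sec was then set against untreated skin within the cycling cells. UMIs were summed over the cycling keratinocytes of each library and fitted with edgeR's quasi-likelihood model with age and treatment as factors, and p-values were adjusted by the Benjamini-Hochberg method over all 8073 genes tested. Each condition had 1 library, so the error of this fit is the variation of the treatment difference between ages, not the spread between animals. At an adjusted p of 0.05, 78 genes were higher with PBMC-sec (0.966% of those tested) and 47 lower (0.582%). Changes are log2 values with PBMC-sec over untreated, ± SE, and the median over all genes was -0.00. Without the 5 mixed barcodes 117 were higher and 75 lower, of which 119 were among the 125, and with DESeq2 60 were higher and 21 lower. Without the near-identical barcodes 73 were higher and 42 lower. Genes whose level over all other kept cells exceeded 5 times that in cycling keratinocytes in any library were treated as prone to free RNA, the transcripts that leak from other cells into every droplet. The genes named as the largest changes were not of that kind, had the same direction at every age and reached 50 CPM.

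The largest rise among the named genes was that of Akr1b3, aldose reductase, which turns glucose into the osmolyte sorbitol (chromosome 6, 34302434 to 34317478). It had 743, 545 and 619.7 CPM in PBMC-sec libraries, against 42.5, 35.5 and 25.1 CPM in untreated libraries, a log2 change of 4.34 ± 0.33, adjusted p = 2.8e-05. Every PBMC-sec library was far above every untreated one. Other keratinocytes showed a like difference, with 634, 353 and 645 CPM with PBMC-sec, against 29.9, 30.5 and 33.3 CPM untreated, and the term for a difference between both classes was 0.03, adjusted p = 0.99. Of the 9 osmotic stress genes tested, Akr1b3 was the 1 called, and the list's median was 0.16. Slc38a2, an amino acid transporter of the same list, had 345, 348 and 364 CPM in PBMC-sec libraries, against 421, 334 and 556 CPM in untreated libraries, which did not pass (-0.17, adjusted p = 0.83).

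Ligands of the epidermal growth factor receptor, which drives keratinocyte growth, rose. Of 14 tested genes of the EGF receptor ligand and feedback list, 4 rose and 0 fell, with a median of 0.46. Epgn (epigen, chromosome 5, 91027464 to 91035215) had 292, 248 and 328 CPM in PBMC-sec libraries, against 52.5, 53.3 and 38.7 CPM in untreated libraries (2.71 ± 0.30, adjusted p = 0.0004). Areg (amphiregulin, chromosome 5, 91139599 to 91148432) had 443, 607 and 561 CPM in PBMC-sec libraries, against 163, 135 and 119 CPM in untreated libraries (2.05 ± 0.30, adjusted p = 0.0029). The PBMC-sec and untreated libraries did not overlap for either. Ereg (epiregulin), which is prone to free RNA, and Phlda1, a feedback gene of growth factor signalling, were the other members called. Phlda1 had 821, 1423 and 1215 CPM in PBMC-sec libraries, against 441, 526 and 269 CPM in untreated libraries (1.60 ± 0.37, adjusted p = 0.046), and its call was lost without either 26-week library. Hbegf, a further ligand, had 341, 463 and 331 CPM in PBMC-sec libraries, against 276, 217 and 169 CPM in untreated libraries and did not pass (0.89, adjusted p = 0.16).

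Other secreted and signalling genes rose with them. Nppb, natriuretic peptide B, a hormone best known from the heart (chromosome 4, 147985788 to 147987205), had 445, 915 and 1149 CPM in PBMC-sec libraries, against 115, 56.9 and 13.7 CPM in untreated libraries (3.87 ± 0.64, adjusted p = 0.0068). In 1 library 56.2% of its UMIs came from 1 cell, and the change was 2.73 to 5.25 as libraries were left out. Its UMIs were nonetheless spread over cells: after thinning to 2000 UMIs it was found in 36.4, 61.9 and 25.3% of cycling keratinocytes with PBMC-sec, against 10.8, 11.1 and 2.56% untreated. With all UMIs the shares were 61.1, 79.4 and 42.2%, against 24.6, 21.4 and 10.3%. Collagen-rich cells (at least 20 UMIs of the 4 collagen and matrix genes) thinned alike, which should lack it, showed 0 to 3.41%. Other keratinocytes showed 21.7, 35.5 and 27.9% with PBMC-sec, against 7.24, 8.89 and 8.30% untreated, so the share was higher with PBMC-sec in both classes. Epgn was found likewise in 29.4, 27.0 and 28.9% of cycling keratinocytes with PBMC-sec, against 9.23, 11.1 and 0% untreated. With all UMIs, 54.2, 66.7 and 62.7% held it with PBMC-sec, against 31.9, 39.3 and 20.5% untreated, so the 0 of the 52-week untreated library holds for the thinned depth alone. Other keratinocytes thinned alike had 23.4, 26.03 and 35.9% with PBMC-sec, against 11.0, 10.6 and 13.5% untreated, and their share with PBMC-sec at 52 weeks lay above that of the cycling cells. Il24, a cytokine of the interleukin-10 family, had 237, 141 and 81.2 CPM in PBMC-sec libraries, against 45.8, 46.2 and 25.1 CPM in untreated libraries (2.06 ± 0.28, adjusted p = 0.0022), with up to 63.6% of a library's UMIs in 1 cell.

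Enzymes and structural regulators among the named genes rose as well. Odc1, ornithine decarboxylase, the rate-limiting enzyme of polyamine synthesis, had 366, 447 and 493 CPM in PBMC-sec libraries, against 98.4, 146 and 100.3 CPM in untreated libraries (2.05 ± 0.29, adjusted p = 0.0022). Has2, a hyaluronan synthase, had 82.7, 147 and 96.4 CPM in PBMC-sec libraries, against 44.7, 24.9 and 9.12 CPM in untreated libraries (2.03 ± 0.41, adjusted p = 0.025), its call was lost with a mitochondrial limit of 5%, and its change was 3.12 or 3.13 without either 8-week library. Stx11, a syntaxin of vesicle fusion, had 54.4, 133 and 74.5 CPM in PBMC-sec libraries, against 21.2, 21.3 and 18.2 CPM in untreated libraries (2.02 ± 0.32, adjusted p = 0.0055). Both groups were clear of each other for all 3 genes. Bcar3, an adaptor of integrin signalling, rose by 2.41 on the log2 scale, the small GTPase Rrad by 2.18 with up to 63.0% of UMIs in 1 cell, Ccdc71l by 2.20 and Gm28592, a long intergenic RNA, by 3.03. As libraries were left out, the change ran from 1.72 to 3.07 for Rrad, from 1.70 to 3.00 for Ccdc71l and from 2.30 to 3.50 for Gm28592.

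The inducible heat shock genes Hspa1a and Hspa1b, which encode the chaperone Hsp70, fell, Hspa1a by the most among the named genes. Hspa1a (chromosome 17, 34969190 to 34972156) had 94.6, 64.2 and 99.7 CPM in PBMC-sec libraries, against 393, 423 and 1076 CPM in untreated libraries (-2.61 ± 0.28, adjusted p = 0.00036). Its neighbour Hspa1b (chromosome 17, 34956436 to 34959238) had 119.5, 89.3 and 159.7 CPM in PBMC-sec libraries, against 359, 490.4 and 864 CPM in untreated libraries (-2.03 ± 0.27, adjusted p = 0.0022). Every PBMC-sec library was below every untreated one for both. The 2 genes are near-identical copies, so how reads were divided between them is uncertain. They were the 2 of 12 heat shock genes that passed, and the list's median was 0.03. Hspa8, the constitutive Hsp70, had 1533, 1266 and 1238 CPM in PBMC-sec libraries, against 1358, 1201 and 1235 CPM in untreated libraries and did not pass (0.20, adjusted p = 0.83).

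Interferon-induced genes fell with PBMC-sec. Of 23 measured type I interferon genes 14 were tested, 7 fell and 0 rose, and the median was -2.07, with 0 of 14 above 0. Without the mixed barcodes 13 fell. The genes called were Isg15, Bst2, Oasl2, Xaf1, Irf7, Irf9 and Ifih1, of which 6, all but Ifih1, are prone to free RNA. Ifih1, the RNA sensor MDA5, had 4.53, 5.01 and 6.16 CPM in PBMC-sec libraries, against 25.7, 21.3 and 18.2 CPM in untreated libraries (-1.93 ± 0.45, adjusted p = 0.049), a call lost in 7 of 17 alternatives, among them DESeq2 and leaving out the 26-week untreated or either 8-week library. Isg15, a ubiquitin-like modifier, had 24.9, 13.0 and 10.1 CPM in PBMC-sec libraries, against 190.0, 67.5 and 25.1 CPM in untreated libraries (-2.28 ± 0.37, adjusted p = 0.006). With DESeq2 3 of the 14 fell. The other keratinocytes had 26.9, 11.4 and 28.7 CPM with PBMC-sec, against 186, 44.2 and 137 CPM untreated of Isg15, and a test of the difference in treatment change between both classes called 0 of 22 interferon genes (2 at an unadjusted p under 0.05; 0 with DESeq2). The macrophage marker sums, given above, overlapped between treatments. The 11 T and innate lymphoid markers did not: they summed to 69.7, 68.2 and 77.9 CPM in PBMC-sec libraries, against 134, 99.5 and 175.5 CPM in untreated libraries, and without the mixed barcodes to 47.8 to 69.7 CPM, against 112 to 175.5 CPM. Most of each untreated sum came from Thy1 alone, 1 of the 11, whose own fall is given below. With all members counted, the other markers together were not lower with PBMC-sec at any age. At 0 were 8, 3 and 0 of the 11 with PBMC-sec, against 6, 9 and 8 untreated. The part of these markers in the fall of the interferon genes was not tested.

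Genes of antigen presentation on MHC class I fell in part. Of 11 tested, 3 fell and 0 rose, with a median of -0.60. Tap1, a subunit of the peptide transporter (chromosome 17, 34187553 to 34197225), had 47.0, 31.1 and 33.1 CPM in PBMC-sec libraries, against 122, 99.5 and 153 CPM in untreated libraries (-1.61 ± 0.25, adjusted p = 0.005). Psmb9, an immunoproteasome subunit encoded beside it (chromosome 17, 34181987 to 34187764), had 26.1, 31.1 and 28.6 CPM in PBMC-sec libraries, against 105, 74.6 and 68.4 CPM in untreated libraries (-1.43 ± 0.29, adjusted p = 0.027). Tap2, the other transporter subunit, fell by 1.17 on the log2 scale, and its call was lost in 10 of 18 alternatives. No untreated library was as low as any PBMC-sec library for Tap1 or Psmb9. B2m, the light chain, had 856, 1078 and 1025 CPM in PBMC-sec libraries, against 1432, 1315 and 1536 CPM in untreated libraries and did not pass (-0.42, adjusted p = 0.63). The call of Psmb9 was lost without either 8-week library. With DESeq2 the calls of Psmb9 and Tap2 were lost, and 1 of the 11 fell.

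**Figure D3:**
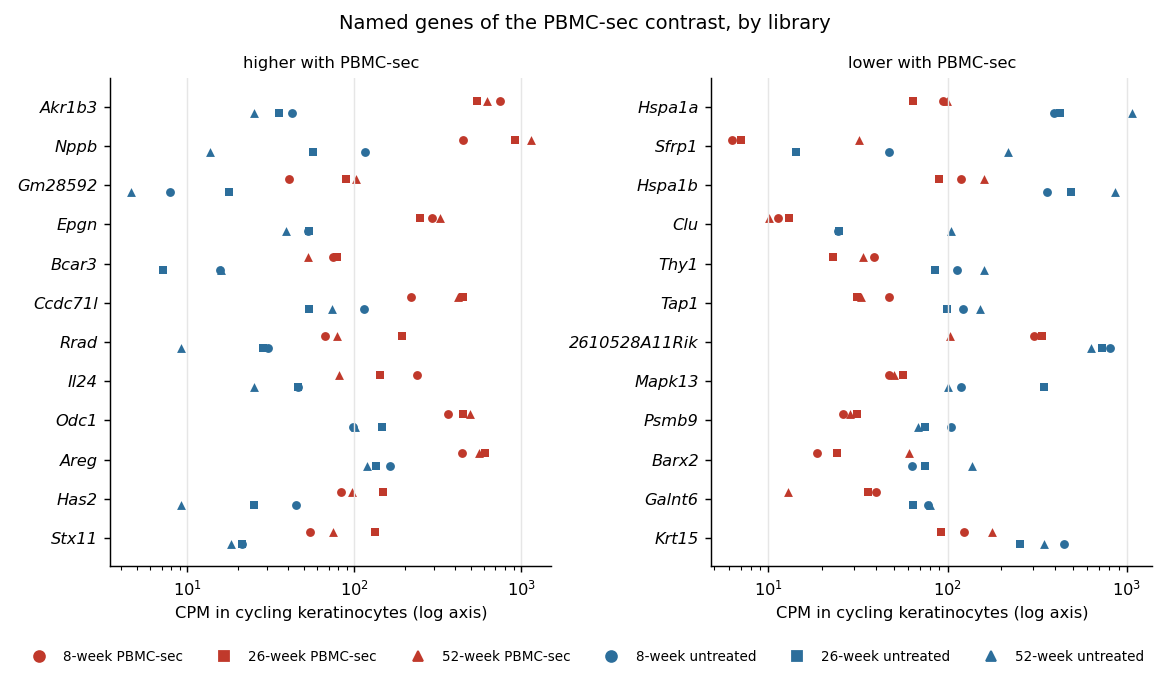
Levels of the named genes in cycling keratinocytes, in CPM on a log axis (x axis), for the 3 PBMC-sec libraries (red) and the 3 untreated libraries (blue), with symbols for age; genes that rose are on the left and genes that fell on the right. Akr1b3 shows the widest gap, with all PBMC-sec libraries at 545 CPM or more and all untreated ones at 42.5 CPM or less, and for Sfrp1 the groups overlap.

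Some genes of the hair follicle bulge and outer root sheath fell. Of 12 tested, 3 fell and 0 rose, with a median of -0.52. Krt15, a keratin of bulge stem cells, had 124, 92.3 and 177 CPM in PBMC-sec libraries, against 445, 252 and 344 CPM in untreated libraries (-1.30 ± 0.29, adjusted p = 0.038). Barx2, a homeobox transcription factor, had 18.7, 24.1 and 61.1 CPM in PBMC-sec libraries, against 63.7, 74.6 and 137 CPM in untreated libraries (-1.33 ± 0.29, adjusted p = 0.036). For both genes, leaving out either library of 8 or of 26 weeks ended the call, with changes of -1.72 to -0.97 for Krt15 and -1.75 to -1.09 for Barx2 over all libraries left out, and up to 54.3% of the Krt15 UMIs of a library came from 1 cell. Postn, the matrix protein periostin, had 21.0, 8.02 and 124 CPM in PBMC-sec libraries, against 141, 7.11 and 424 CPM in untreated libraries (-1.77 ± 0.36, adjusted p = 0.027), and without either 8-week library its change was -1.05 or -1.06 and its call was lost. Sfrp1, a secreted WNT antagonist, fell by 2.33 on the log2 scale (adjusted p = 0.0022) with overlapping groups: it had 6.23, 7.02 and 31.9 CPM in PBMC-sec libraries, against 46.9, 14.2 and 217 CPM in untreated libraries. The fibroblast marker sum in the same cells was highest, 520 CPM, in the 52-week untreated library, where Postn and Sfrp1 were highest too; its part in these changes was not tested.

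The same compartment was read from shares of cells. After thinning to 2000 UMIs, Sox9 or Krt15 was found in 15.4, 12.7 and 41.0% of cycling keratinocytes in PBMC-sec libraries, against 46.2, 37.0 and 43.6% in untreated libraries. The difference was -30.8, -24.3 and -2.63 percentage points, with a mean of -19.2 ± 14.7 (SD, n = 3; exact sign-flip permutation p = 0.25, the smallest possible). It was thus large at 8 and 26 weeks and small at 52 weeks, where it was 13.6 points with members chosen after thinning and 14.2 points with at least 5 cycling UMIs. Other keratinocytes thinned alike had 15.8, 14.0 and 26.4% with PBMC-sec, against 34.3, 23.3 and 25.03% untreated, and collagen-rich cells, taken as background, 1.95 to 9.16%. Krt1 or Krt10, marks of suprabasal cells, were found in 8.39, 6.35 and 12.05% of cycling keratinocytes with PBMC-sec, against 15.4, 11.1 and 12.8% untreated, close to the background of 4.84 to 17.6%. Krt79 or Defb6, marks of the upper follicle, were found in 2.80, 3.17 and 13.3% with PBMC-sec, against 0, 0 and 23.1% untreated. With all UMIs the shares were 6.94, 12.7 and 24.1% with PBMC-sec, against 17.4, 10.7 and 28.2% untreated, so both zeros belong to the thinned depth and the order at 8 weeks was the opposite.

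The remaining named genes that fell were Thy1, a surface glycoprotein, with 39.1, 23.1 and 33.6 CPM in PBMC-sec libraries, against 113, 85.3 and 159.6 CPM in untreated libraries (-1.74 ± 0.26, adjusted p = 0.0029), the extracellular chaperone Clu (-1.84), the kinase Mapk13 (-1.54), the glycosyltransferase Galnt6 (-1.32) and 2610528A11Rik (-1.59). Thy1 also marks T cells and is among the T and innate lymphoid markers summed above, where it gave most of each untreated sum. Among those markers Cd3e was at 0 in 5 libraries. Mapk13 held 74.2% of its UMIs in 1 cell of a library and was not called without the mixed barcodes (adjusted p = 0.066), without either 26-week library (-0.93 and -0.94), at the mitochondrial limit of 5% or with thinned sums. Clu was not called without either 52-week library (-1.07 and -1.06), nor was Galnt6.

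The wound-activated list had 6 of 21 tested genes higher with PBMC-sec and 0 lower, with a median of 0.83. The urokinase Plau, its receptor Plaur, the collagenase Mmp13, the stromelysin Mmp10 and the integrin subunit Itga5 were among those called and are prone to free RNA. Plau, for one, had 90.7, 165 and 229.7 CPM in PBMC-sec libraries, against 32.4, 7.11 and 6.84 CPM in untreated libraries in cycling keratinocytes. Serpinb2, an inhibitor of urokinase, had 3495, 4875 and 4087 CPM in PBMC-sec libraries, against 2173, 1464 and 879.8 CPM in untreated libraries and did not pass (1.66, adjusted p = 0.1). Of 19 cytokine and chemokine genes, 4 rose (Tnf, Il1b, Cxcl3 and the prostaglandin synthase Ptgs2) and 0 fell, with a median of 0.82, and all 4 are prone to free RNA. Ptgs2 had 1235, 1276 and 1157 CPM in PBMC-sec libraries, against 325, 327 and 128 CPM in untreated libraries (2.44 ± 0.39, adjusted p = 0.0055) in cycling keratinocytes.

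Apart from the heat shock list given above, whose called genes fell, stress, signalling and detoxification lists had 0 to 4 genes called each. All of these were higher with PBMC-sec. Of 17 ATF4 and amino acid genes 3 rose (median 0.42), of which Ddit4, an inhibitor of mTORC1, had 1018, 727 and 586 CPM in PBMC-sec libraries, against 382, 306 and 339.6 CPM in untreated libraries (1.27 ± 0.28, adjusted p = 0.037), while Nupr1 and Slc7a11 are prone to free RNA. The call of Ddit4 was lost without any single 8-week or 26-week library. Of 20 NRF2 genes 2 rose, Slc7a11 and Gsta4, and 6 did without the mixed barcodes; the median was 0.59, and 11 passed an unadjusted p of 0.05. Gsta4, a glutathione transferase, had 893, 998 and 356 CPM in PBMC-sec libraries, against 450.4, 209.7 and 84.3 CPM in untreated libraries (1.85 ± 0.34, adjusted p = 0.013), a call lost without the 26-week untreated library. Of 18 unfolded protein response genes 0 passed (4 at an unadjusted p under 0.05, 0 with DESeq2), while 17 had a change above 0 and the median was 0.37. Ier3 rose among 20 immediate early genes (median -0.14), with 3907, 3874 and 2319.8 CPM in PBMC-sec libraries, against 1214, 1422 and 476 CPM in untreated libraries (1.92 ± 0.40, adjusted p = 0.031), and lost its call without any single 8-week or 26-week library. Id3 rose among 13 TGF-β genes (1.48 ± 0.32, adjusted p = 0.036; list median 0.28), with a change of 0.96 or 0.97 without either 52-week library. Of 20 p53 targets Gdf15 rose (median 0.12). Of 12 senescence genes Plaur, Igfbp3, Igfbp7 and Gdf15 rose, all of them prone to free RNA, with a median of 0.99. Cdkn1a, the p21 inhibitor, had 589.8, 971 and 1070.2 CPM in PBMC-sec libraries, against 678, 505 and 649.6 CPM in untreated libraries and did not pass (0.60, adjusted p = 0.48).

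The cell cycle genes themselves gave no call for PBMC-sec. Of 39 S phase genes 0 passed (median 0.15), as did 0 of 56 G2/M genes (-0.28), 0 of 24 replication histone and chromatin genes (-0.12) and 0 of 23 cell cycle regulators (-0.13). At an unadjusted p under 0.05, 3, 13, 1 and 4 genes of these lists passed in edgeR, DESeq2 called 0, and without the mixed barcodes 2 G2/M genes fell at the adjusted threshold. Pcna had 130.3, 146 and 94.7 CPM in PBMC-sec libraries, against 158, 92.4 and 123 CPM in untreated libraries (0.09, adjusted p = 0.91), and Cks2 had 286, 246 and 203 CPM in PBMC-sec libraries, against 229, 195 and 171 CPM in untreated libraries (0.42, adjusted p = 0.5). Ube2c was spread widely, with 382, 186 and 191 CPM in PBMC-sec libraries, against 390.1, 654 and 223 CPM in untreated libraries (-0.55, adjusted p = 0.57), and was highest in the 26-week untreated library. The members were chosen by cycling genes, which limits how far these lists can move.

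Several treatment changes differed between cycling and other keratinocytes. This was tested as a class-by-treatment term over 12 sums with the library as a block, in edgeR's quasi-likelihood model with Benjamini-Hochberg adjustment over 11910 genes. A positive term means a larger PBMC-sec change in cycling than in other keratinocytes. The term was positive in 94 genes (0.789%) and negative in 103 (0.865%), against 107 and 45 without the mixed barcodes, 56 and 60 where the other cells had 0 cycling UMIs, and 15 and 11 with DESeq2.

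Basal adhesion genes, which anchor keratinocytes to the basement membrane, changed differently in cycling cells. Of 17 tested, 7 had a positive term and 0 a negative one, with a median of 0.42 against -0.00 over all genes, and the counts were the same without the mixed barcodes. Lama3, a laminin chain, had 317, 269 and 261 CPM in PBMC-sec libraries, against 137, 142 and 137 CPM in untreated libraries in cycling keratinocytes, and 240.2, 202 and 156 CPM with PBMC-sec, against 259.6, 290.3 and 473 CPM untreated in other keratinocytes (term 1.69 ± 0.21, adjusted p = 4.2e-07). Lamb3, a laminin chain too, had a term of 1.05 ± 0.20, adjusted p = 0.00067. For Lama3 the PBMC-sec level was above the untreated one in cycling cells at every age and below it in other keratinocytes at every age. Itgb1, Itga2, Itgb4 and Col17a1, which bind the basement membrane, were called too, with terms of 0.82, 0.97, 0.74 and 0.69. These 4 calls were lost in 5 to 11 of 19 alternatives, DESeq2 and thinned sums among them for each. The calls of Lama3 and Lamb3 were lost with thinned sums too and kept in every other alternative.

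Growth factor and cytokine genes followed. Il24 had the largest term among the named genes (2.52 ± 0.25, adjusted p = 2.0e-09), with 59.7, 14.3 and 23.4 CPM with PBMC-sec, against 52.8, 29.1 and 64.1 CPM untreated in other keratinocytes. Areg had a term of 1.60 ± 0.21, adjusted p = 1.4e-06, with 344, 274 and 373 CPM with PBMC-sec, against 257, 198 and 403 CPM untreated in other keratinocytes. Epgn had a positive term (adjusted p = 0.01) whose call was lost without either 8-week library, with DESeq2 and with thinned sums. Gsta4 had a term of 1.94 ± 0.22, adjusted p = 3.6e-08: other keratinocytes had 1150.2, 992 and 509 CPM with PBMC-sec, against 1122, 1663 and 571 CPM untreated, so that treated and untreated levels there overlapped. Gm28592 had a term of 1.66 ± 0.39, adjusted p = 0.011. Its call was lost in 7 of 19 alternatives, among them DESeq2, thinned sums and leaving out either 52-week library. Of 22 wound-activated genes 8 had a positive term and 2 a negative one (median 0.65), against 2 and 0 with DESeq2. The negative ones were the cornified envelope gene Sprr1a and Krt6b, both prone to free RNA, as are the positive Mmp9, Mmp10 and Mmp13. Of 22 cytokine and chemokine genes 5 had a positive term (Ptgs2, Tnf, Cxcl5, Cxcl3 and Il1b) and 0 a negative one (median 0.57), and DESeq2 called 1.

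Negative terms were found for 3 genes of the bulge and outer sheath list and for single genes of the cell cycle lists. Sox9, the transcription factor of follicle stem cells, had 51.0, 80.2 and 202 CPM in PBMC-sec libraries, against 183, 192 and 248 CPM in untreated libraries in cycling keratinocytes and 87.0, 76.9 and 206 CPM with PBMC-sec, against 105, 54.7 and 139 CPM untreated in other keratinocytes (term -1.43 ± 0.21, adjusted p = 1.1e-05). Of 16 bulge and outer sheath genes, 3 had a negative term (Sox9, Fst and Postn) and 0 a positive one, and DESeq2 called 2 of them. Other follicle lists differed: of 12 upper follicle genes 3 had a positive term and 1 a negative one (median 0.58). Without the mixed barcodes these counts were 3 and 0, and DESeq2 called 0. Of 6 hair matrix genes 1 had a negative term, with DESeq2 as well. The Postn term was -1.31, missed the threshold without either 8-week library (-0.24 and -0.26) and was also lost with DESeq2, with thinned sums and where the other cells had 0 cycling UMIs. Of the cell cycle lists, 1 of 57 G2/M genes (Cdc20), 1 of 46 S phase genes (Tk1), 1 of 27 regulators (Myc) and 0 of 25 replication histone and chromatin genes had a negative term, beside 0.865% of all genes. Cdc20, which activates the anaphase-promoting complex, had 89.5, 74.2 and 81.2 CPM in PBMC-sec libraries, against 77.1, 110.2 and 72.9 CPM in untreated libraries in cycling keratinocytes, where the groups overlapped, and 11.4, 11.9 and 14.2 CPM with PBMC-sec, against 4.65, 3.18 and 6.32 CPM untreated in other keratinocytes (term -1.51 ± 0.29, adjusted p = 0.001). Cdc20 was thus higher with PBMC-sec among the other keratinocytes, and its call was lost without either 26-week library and with thinned sums. Tk1, thymidine kinase, behaved alike, with a term of -1.29 ± 0.25, adjusted p = 0.00092. In other keratinocytes it had 63.0, 43.9 and 17.6 CPM with PBMC-sec, against 22.3, 13.5 and 14.7 CPM untreated. Its call was lost without either 8-week library and with thinned sums. The proto-oncogene Myc (-0.91), Notch1 (-0.92) and Klf4 (-0.74) also had negative terms, each lost with DESeq2 and without either 8-week library. The further named genes with a negative term were Sfrp1 (-1.54), the tenascin Tnxb (-1.56), the γ-glutamyl hydrolase Ggh (-1.52) and the serpin Serpinb8 (-1.47). Each of these 4 was lost with thinned sums, Sfrp1 and Tnxb also with DESeq2, and Sfrp1 without either 52-week library or the 8-week untreated one. Of 25 suprabasal genes 9 had a negative term, but 2 did without the mixed barcodes, one of which held the cornified envelope UMIs of the 26-week untreated library given above.

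**Figure D4:**
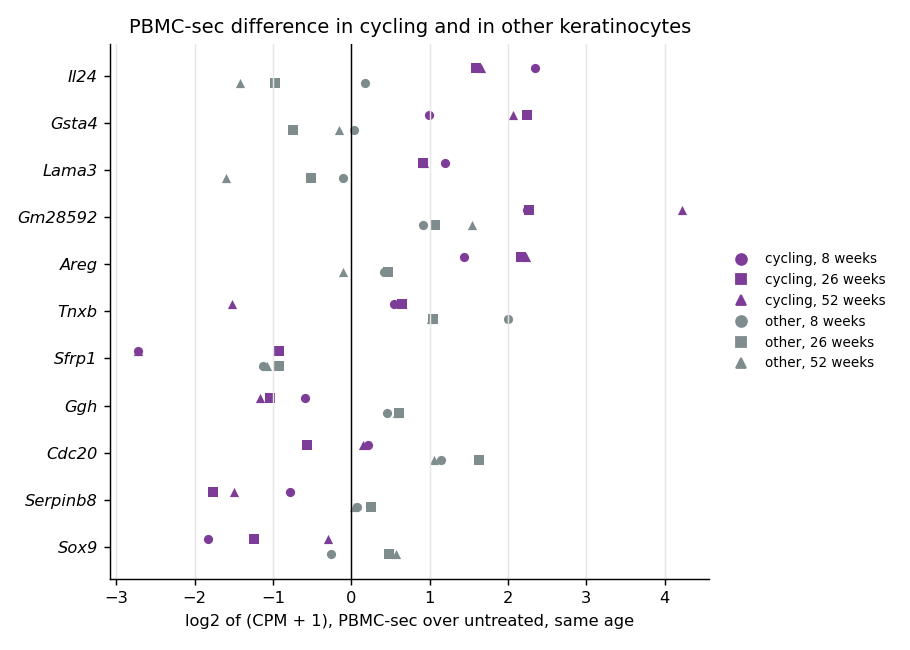
PBMC-sec over untreated at the same age, as log2 of (CPM + 1), for cycling keratinocytes (purple) and other keratinocytes (grey), with a symbol for each age and 1 row per gene named for the class-by-treatment term. For Lama3 all 3 purple points lie right of 0 and all 3 grey points left of it.

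Age was compared within the same 6 sums, 52 against 8 weeks and 26 against 8 weeks, with treatment as a factor. Between 52 and 8 weeks 30 genes were higher (0.372% of 8073) and 3 lower (0.0372%) at an adjusted p of 0.05 in edgeR's quasi-likelihood test. Without the mixed barcodes 133 were higher and 31 lower, including all 33, and DESeq2 called 12 higher and 4 lower. The 2 libraries of an age stand in for its samples and may share animals. Between 26 and 8 weeks 2 genes were higher (0.0248%) and 0 lower (0%), with 295 at an unadjusted p under 0.05 and 0 called by DESeq2. The 2 genes, Cst6 and Psors1c2, are both prone to free RNA.

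Regulators and secreted factors led the genes that were higher at 52 weeks. Creb5, a transcription factor of the CREB family (chromosome 6, 53287270 to 53700376), had 23.2, 31.1 and 114 CPM in PBMC-sec libraries and 31.3, 35.5 and 253 CPM in untreated libraries (log2 change of 52 over 8 weeks 2.69 ± 0.31, adjusted p = 0.0039). Pthlh, parathyroid hormone-like hormone, had 10.2, 32.1 and 92.5 CPM in PBMC-sec libraries and 20.1, 17.8 and 79.8 CPM in untreated libraries (2.68 ± 0.41, adjusted p = 0.015). Ptn, the growth factor pleiotrophin, had 17.0, 9.03 and 71.2 CPM in PBMC-sec libraries and 43.6, 7.11 and 144 CPM in untreated libraries (1.92 ± 0.33, adjusted p = 0.025). Both 52-week libraries stood above both 8-week ones for each, as the naming rule required. Pthlh and Ptn lost their calls without the 8-week PBMC-sec library (changes of 1.74 and 1.43), and up to 53.1 and 58.7% of a library's UMIs came from 1 cell. Rassf9 had 9.07, 27.1 and 45.4 CPM in PBMC-sec libraries and 21.2, 53.3 and 91.2 CPM in untreated libraries (2.26 ± 0.34, adjusted p = 0.015). Timp3, an inhibitor of metalloproteinases, had a change of 2.07, the phosphatase Dusp16 one of 1.87, Fam13b one of 1.86 and the histone gene Hist1h2bc one of 1.85. Timp3 lost its call without the 52-week PBMC-sec or the 8-week untreated library, Dusp16 without either PBMC-sec library of 8 or 52 weeks, and Hist1h2bc without the 8-week untreated library.

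The 3 genes that were lower at 52 weeks were Tubb6, Tmem97 and Sprr2a3. Tubb6, a β-tubulin, had 220.4, 173 and 71.7 CPM in PBMC-sec libraries and 135, 99.5 and 31.9 CPM in untreated libraries (-1.68 ± 0.32, adjusted p = 0.041), a call lost without the 8-week untreated library. Tmem97, a sterol-regulated membrane protein, had 98.6, 84.2 and 22.97 CPM in PBMC-sec libraries and 72.6, 39.1 and 25.1 CPM in untreated libraries (-1.81 ± 0.33, adjusted p = 0.038), a call lost without the 52-week PBMC-sec library. Sprr2a3 had 786, 332 and 184 CPM in PBMC-sec libraries and 313, 159.9 and 98.01 CPM in untreated libraries (-1.83 ± 0.31, adjusted p = 0.025), a call lost without the 8-week PBMC-sec library, and it has near-identical copies between which reads may be divided.

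**Figure D5:**
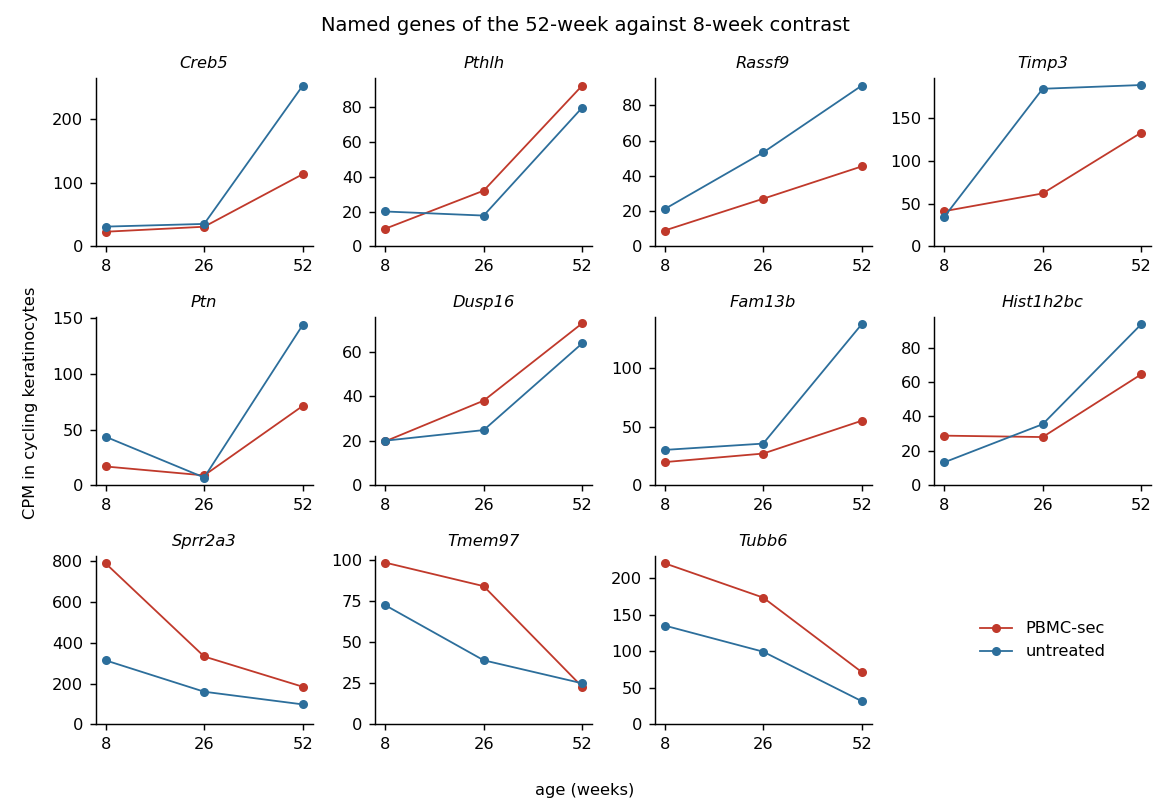
Levels in cycling keratinocytes in CPM (y axis) against age in weeks (x axis) for the named genes of the comparison of 52 with 8 weeks, with 1 line for the PBMC-sec libraries and 1 for the untreated libraries. Each point is 1 library; Creb5 stands at 114 and 253 CPM at 52 weeks, against 23.2 and 31.3 CPM at 8 weeks.

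Among the lists, upper follicle genes had the highest median change between 52 and 8 weeks. Of 10 tested, 3 were higher at 52 weeks (Krt79, Defb6 and Cst6), with a median of 1.56 against -0.00 over all genes, and 5 were higher without the mixed barcodes. All 3 are prone to free RNA. Krt79, a keratin of the follicle opening, had 9.63, 212 and 146 CPM in PBMC-sec libraries and 8.94, 3.55 and 283 CPM in untreated libraries. Single cells carry much of this: up to 98.6% of the Krt79 UMIs and 98.5% of the Defb6 UMIs of a library came from 1 cell. At 26 weeks with PBMC-sec Krt79 and Defb6 together stood at 542 CPM, but at 6.25 CPM among members with at least 5 cycling UMIs, and 2 of 63 cells held either after thinning. Of 12 bulge and outer sheath genes 1 was higher, Postn (2.02 ± 0.38, adjusted p = 0.041), with a median of 1.04, and 4 were higher without the mixed barcodes. The Postn change was 1.25 without the 8-week PBMC-sec library and 1.25 to 2.92 over all libraries left out. Its call was lost without that library, at the mitochondrial limit of 5%, with at least 5 cycling UMIs and without high doublet scores. The fibroblast marker sum was 192, 143 and 97.5 CPM with PBMC-sec and 179.9, 85.3 and 520 CPM untreated, and its part in the change of Postn was not tested. Cell cycle lists gave no call: 0 of 39 S phase genes (median -0.50, 6 above 0), 0 of 56 G2/M genes (-0.37, 10 above 0) and 0 of 24 replication histone and chromatin genes (-0.46, 2 above 0). At an unadjusted p under 0.05, 10, 9 and 7 of them passed, DESeq2 called 0, and without the mixed barcodes 1 S phase and 3 histone and chromatin genes fell at the adjusted threshold.

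The age change differed between cycling and other keratinocytes in 87 genes, with a positive term in 45 (0.378% of 11910) and a negative one in 42 (0.353%), against 51 and 44 without the mixed barcodes. Among the genes with a negative term were Tubb6 (-1.71 ± 0.27, adjusted p = 0.00015), Tuba1c (-1.63 ± 0.26, adjusted p = 0.00016), Tuba8 (-1.50 ± 0.30, adjusted p = 0.0051) and Tubb4b (-1.35 ± 0.23, adjusted p = 0.00058), which encode tubulins. Tubulins were not a list of their own; 4 of them stand on the replication histone and chromatin list, of whose 25 genes 2 had a negative term. Tuba1c, an α-tubulin, had 138, 143 and 66.1 CPM in PBMC-sec libraries and 186, 153 and 61.5 CPM in untreated libraries in cycling keratinocytes, while other keratinocytes had 77.0, 114 and 85.6 CPM with PBMC-sec and 115, 130.3 and 129 CPM untreated. Its 52-week levels were the lowest in cycling cells of both treatments and not in other keratinocytes. Tubulin genes are close copies of each other, so the division of reads among them is uncertain, and Tuba8 and Tubb4b lost their calls without the 8-week PBMC-sec library, Tuba8 also without that of 52 weeks. Postn (2.26 ± 0.33, adjusted p = 0.00011), Sfrp1 (1.84 ± 0.35, adjusted p = 0.0026), Pthlh (1.80 ± 0.34, adjusted p = 0.0029), Ptn (1.66 ± 0.33, adjusted p = 0.0042), Gas1 (1.85 ± 0.41, adjusted p = 0.015) and Thy1 (1.46 ± 0.30, adjusted p = 0.0063) had positive terms. Postn (1.03), Pthlh, Ptn and Gas1 lost them without the 8-week PBMC-sec library, the last 3 also without that of 52 weeks and Ptn without the 8-week untreated one, and Sfrp1 and Thy1 without either untreated library of 8 or 52 weeks. With DESeq2, 7 genes in all were called.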

How the data were processed

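Per the labels' protocols, dorsal skin was dissociated with a gentleMACS whole skin kit and libraries were made with Chromium 3′ chemistry. The authors deposited filtered matrices of raw UMI counts per gene and cell barcode, made with Cell Ranger 5.0.1 per the file headers and against mm10 (GRCm38) per the submitters' processing notes. The sources used here name no annotation release.

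Kept barcodes had 500 or more UMIs, 300 or more genes and a mitochondrial share of at most 10%. Members and gene lists were chosen with earlier results of these data known. Counts were summed per library over members or over other keratinocytes, and sums were fitted with edgeR 4.0.16 (TMM, filterByExpr, quasi-likelihood F test, Benjamini-Hochberg adjustment) or, as an alternative, DESeq2 1.42.0, in R 4.3.3. The edgeR fits of the PBMC-sec change and of the class-by-treatment term were run on simulated data, and DESeq2 was not. The simulated data held no age or class effects, unlike the real sums, and the outcome is not given here. Shares, thinning with a fixed seed and exact tests used scipy 1.17.1. Gene positions are those of GENCODE vM21. Scrublet's automatic threshold marked 0 doublets, so the highest scores, 0.8% per 1000 barcodes, were removed as an alternative, which held 16 members.

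Named genes passed an adjusted p of 0.05, reached 50 CPM and were ranked by log2 change: up to 12 a direction for PBMC-sec, 8 for age and 6 for the class terms. Those for PBMC-sec also moved one way in every age pair, and those for age had both libraries of 1 age beyond both of the other. No such rule was set for the class terms. Genes prone to free RNA were left out of this ranking, a step added after the values were seen. Other genes named are members of the gene lists. A few genes counted in the fits and lists are not reported here by name. Library totals of 19956655 to 40211991 UMIs, and 281374 to 1784677 UMIs over the members of a library, set the counting precision.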

Additional observations from a re-analysis of the deposited data

Results flagged for a closer look

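Each result below is a test in which the change differed between cycling and other keratinocytes of the same libraries. Values are log2 terms of edgeR's quasi-likelihood test, where positive means a larger change in cycling cells, with adjusted p-values over all genes.

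For PBMC-sec against untreated skin, positive terms were Il24 (2.52, adjusted p = 2.0e-09), Gsta4 (1.94, adjusted p = 3.6e-08), Lama3 (1.69, adjusted p = 4.2e-07), Gm28592 (1.66, adjusted p = 0.011) and Areg (1.60, adjusted p = 1.4e-06). The 6 negative terms were Tnxb (-1.56, adjusted p = 0.00084), Sfrp1 (-1.54, adjusted p = 0.0031), Ggh (-1.52, adjusted p = 4.7e-05), Cdc20 (-1.51, adjusted p = 0.001), Serpinb8 (-1.47, adjusted p = 0.00062) and Sox9 (-1.43, adjusted p = 1.1e-05).

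For 52 against 8 weeks, 6 positive terms were Postn (2.26, adjusted p = 0.00011), Gas1 (1.85, adjusted p = 0.015), Sfrp1 (1.84, adjusted p = 0.0026), Pthlh (1.80, adjusted p = 0.0029), Ptn (1.66, adjusted p = 0.0042) and Thy1 (1.46, adjusted p = 0.0063). The 6 negative terms were Tubb6 (-1.71, adjusted p = 0.00015), Prr9 (-1.63, adjusted p = 0.0056), Tuba1c (-1.63, adjusted p = 0.00016), Tuba8 (-1.50, adjusted p = 0.0051), Tinagl1 (-1.46, adjusted p = 0.0069) and Plin2 (-1.43, adjusted p = 0.0062), the coat protein of lipid droplets. Plin2 had 55.5, 70.2 and 37.0 CPM in PBMC-sec libraries and 101, 56.9 and 57.0 CPM in untreated libraries in cycling keratinocytes. With DESeq2 every one of the age terms but those of Tubb6 and Tuba1c was lost.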

How the results depend on the processing

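The number of genes called moved with the processing more than the direction of the named genes did. With DESeq2 81 genes were called for PBMC-sec in place of 125, 16 for 52 against 8 weeks in place of 33, 0 for 26 against 8 weeks in place of 2, 26 for the class-by-treatment term in place of 197 and 7 for the class-by-age term in place of 87. With members thinned to 2000 UMIs before summing the counts were 44, 53, 8, 50 and 38. With no filter on low counts they were 355, 271 and 98 for the first 3 and 135 for the class-by-age term. Without the mixed barcodes, an alternative chosen after seeing the data, they were 192, 164 and 1 for the first 3. For 52 against 8 weeks 19 genes were called at a mitochondrial limit of 5%, 13 with at least 5 cycling UMIs and 19 without high doublet scores, and for 26 against 8 weeks 1 under each of these. Where other keratinocytes had 0 cycling UMIs, the terms were called in 116 and, added after seeing the data, 18 genes. Leaving out single libraries or the pair of an age gave 159 to 276 genes for PBMC-sec, 70 to 354 for 52 weeks, 24 to 99 for 26 weeks, 131 to 216 for the class-by-treatment term and 48 to 187 for the class-by-age term. In these fits a lone library is assumed to vary like the rest, and the fits without a single library were added after seeing the data. Of the named genes 13 of 24 for PBMC-sec, 2 of 11 for 52 weeks, 4 of 11 for the class-by-treatment term and 2 of 12 for the class-by-age term kept their call in every alternative, and 0 changed direction. The upper follicle difference turned from -1.28 to 2.78 percentage points when cells were thinned to 2000 UMIs before the rule; the cause was not tested. The means of the other differences in share, phase and compartment kept their sign, although thinning to 2000 UMIs brought those of share and phase to 0.08 and -0.0032. At single ages signs turned: with that thinning the log2 share ratio was -0.59 at 52 weeks, the phase difference 0.57 at 26 and 0.0057 at 52 weeks, the suprabasal difference 10.0 points at 26 weeks and the bulge difference 13.6 points at 52 weeks. Thinned to 1000 UMIs, where 1 to 12 cells a library passed, the share ratio was -0.36 at 26 and -0.59 at 52 weeks, the phase difference 2.27 and the bulge difference 66.7 points at 52 weeks. With at least 5 cycling UMIs the bulge difference was 14.2 points and the phase difference 0.03 at 52 weeks, and at a mitochondrial limit of 5% the suprabasal one was 0.43 points. The PBMC-sec fits and sign-flip tests pair the libraries of 1 age, and replicate numbers add no further pairing with 1 library per condition. Depth limits low genes most in the 26-week untreated library, with 28 members, and without animals as replicates p-values measure only how treatment or age differences vary between libraries.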

Other observations

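Outside the keratin and collagen limits, 123 further cells held at least 3 UMIs of Mki67, Top2a and Cdk1: 10, 5 and 30 in PBMC-sec libraries, against 16, 5 and 57 in untreated libraries. In the 52-week untreated library 40 of its 57 exceeded the collagen limit. Of the metabolic and translation lists none had a gene called in cycling keratinocytes, by edgeR or DESeq2, for PBMC-sec or for 52 against 8 weeks. With PBMC-sec the log2 change was above 0 in 21 of 21 oxidative phosphorylation genes (median 0.24, 1 at an unadjusted p under 0.05 in edgeR), 18 of 21 ribosome biogenesis genes (0.31, 6 at that p), 12 of 15 glycolysis genes (0.22, 1 at that p), 10 of 11 translation factors (0.28, 0 at that p) and 9 of 16 lipid synthesis genes (0.06, 1 at that p). For 52 against 8 weeks it was above 0 in 2 of 21 (median -0.28, 1 at that p), 2 of 21 (-0.47, 5 at that p), 1 of 15 (-0.52, 3 at that p), 8 of 11 (0.07, 0 at that p) and 2 of 16 (-0.37, 2 at that p) of the same lists in the same order. Without the mixed barcodes 1 ribosome biogenesis gene was lower at 52 weeks.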
